A study of Ovis aries with 16 samples.

Results

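PIWI-interacting RNAs (piRNAs) are small RNAs of the germ line that guide PIWI proteins to complementary transcripts. In animal germ cells they are best known for silencing transposons, and in the mammalian testis a large further population is made from long intergenic precursors around meiosis. A single precursor is cut into many piRNAs, and a testis holds a few very abundant piRNAs and a long tail of rarer ones. The piRNAs described here come from the middle of the deposited list, which holds only part of the putative piRNAs the study reports. Every listed piRNA was above 5 CPM in at least 8 libraries, so rarer piRNAs are outside the counts and shares given here. They were every piRNA listed above 0 in all 16 testis libraries, without the 300 piRNAs of highest mean level and without those whose 16 values equalled those of another piRNA. The rule selected 1274 of 4996 listed piRNAs, or 25.5%. Of the 1722 piRNAs above 0 in all libraries, 296 were among the 300 most abundant and 152 others shared their values with another piRNA. The levels chose the members, so the levels, ranks and presence of these piRNAs are descriptions.

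The study compared the testes of 16 Merino male sheep, 24 months old on entry, in 2 groups of 8. Well-fed males were fed to gain 10% of body mass over 65 days and underfed males to lose 10% over the same time. Small RNA was sequenced from the right testis with 1 library per male. The comparison asks whether a change of nutrition in mature males is accompanied by changes in testicular small RNAs. A piece of testis holds germ cells, Sertoli cells, interstitial cells and vessels together, so fewer cells of a type and less RNA per cell cannot be told apart. The piRNAs were predicted by the authors from reads of 26 to 32 nt and are putative. Their sequences and positions were not analysed here, and they are named by the numbers the authors gave them.

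Levels are given in CPM, reads per 1000000 piRNA reads of the library. Low values came in steps of 1 read, from which 18110 to 721305 piRNA reads per library were recovered. Well-fed replicate 5, underfed replicate 6 and underfed replicate 8 held 25552, 18110 and 33385 piRNA reads, and the other 13 libraries held 244875 or more. In the shallow libraries 1 read was worth 30.0 to 55.2 CPM, and the median member had 2 to 5 reads. In the 13 deep libraries 1 read was worth 1.39 to 4.08 CPM, and the median member had 30 to 97 reads. Underfed replicate 1 was deep but stood apart in its levels, as described below. Diet counts and the summed share are given with and without these libraries. The spread and likeness of members are given for the deep libraries, with and without underfed replicate 1.

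Depth decided much of the lower limit of the set. The lowest library of 547 members held a single read of the member, while the other 727 members had 2 or more reads in every library. In the deep libraries only 16 members were ever at 1 read. Just outside the rule, 848 piRNAs were missing from exactly 1 library, and for 834 of them this was a shallow one. Their median mean level was 42.2 CPM, against 136.7 CPM for the members. The same rule applied to the deep libraries alone would have taken 3423 piRNAs. Absence from a shallow library is therefore a count of 0 that allows up to 3 reads, or 89.9 to 166 CPM, and covers counting error only.

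The members filled the range below the most abundant piRNAs (the plot of piRNA numbers by level). Their mean level over 16 libraries ran from 18.3 to 593.4 CPM, with the middle 50% of members between 76.4 and 246.6 CPM. Just above the upper limit lay oar-piR-8241 and oar-piR-10166 at 604.8 and 597.6 CPM. Just below it lay oar-piR-2026, oar-piR-2610, oar-piR-102 and oar-piR-220, at 593.4, 592.8, 587.3 and 586.7 CPM. The levels ran on without a gap across this limit. The lowest members were oar-piR-4058, oar-piR-2753, oar-piR-13146 and oar-piR-4149, at 20.6, 20.1, 19.5 and 18.3 CPM.

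**Figure D1:**
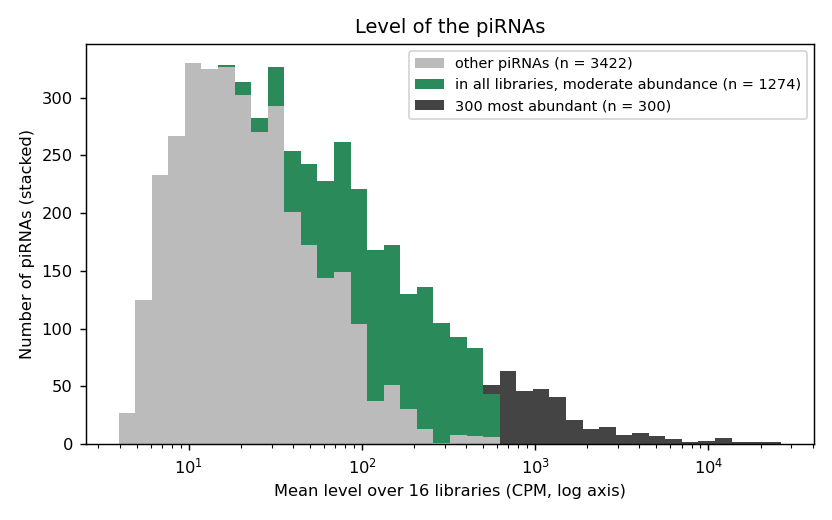
Number of listed piRNAs (vertical axis) by mean level over 16 libraries (CPM, log axis), stacked by class. The 1274 members lie between 18.3 and 593.4 CPM, below the 300 most abundant piRNAs, and other piRNAs reach 585.4 CPM, nearly as high as the members.

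Together the members held a steady share of the piRNA reads. In well-fed males they made up 21.8% to 23.6% of piRNA CPM, with a mean of 22.7% ± 0.536 (SD, n = 8). In underfed males the share was 20.6% to 25.1%, with a mean of 22.9% ± 1.54 (SD, n = 8). The groups overlapped, and the difference of 0.194 percentage points did not pass an exact two-sided permutation test over 12870 arrangements (p = 0.740). The highest share in each diet came from a shallow library, and among the deep libraries alone the difference was -0.275 points (exact permutation p = 0.594). The rule kept only piRNAs above 0 in every library, which favours a higher share in shallow libraries, so this comparison is a description. The 300 most abundant piRNAs took 61.3% to 67.7% in the same libraries.

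**Figure D2:**
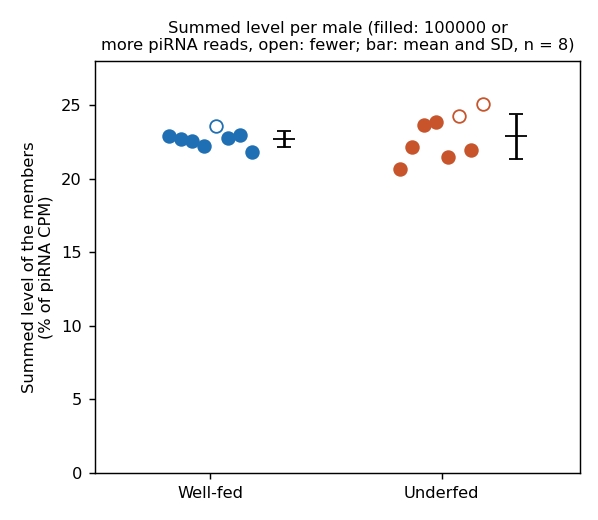
Summed level of the 1274 members as a percentage of piRNA CPM (vertical axis, from 0) in each male, by diet. Filled points are deep libraries, open points are the 3 shallow ones, and bars give the mean and SD of 8 males, 22.7% ± 0.536 well-fed and 22.9% ± 1.54 underfed.

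Most members varied moderately among males. Over the 13 deep libraries the coefficient of variation (CV, SD over mean) had a median of 0.277, and the middle 50% of members lay between 0.219 and 0.349. Without underfed replicate 1 the median was 0.262, and over all 16 libraries it was 0.341. Counting error alone would give a median CV of 0.135 at these read numbers. After its removal in quadrature the median was 0.230, beside 0.233 for the 300 most abundant piRNAs and 0.268 for the remaining 3422. The middle 50% overlapped, at 0.166 to 0.302 for the members and 0.127 to 0.393 for the remaining piRNAs. The rule left out every piRNA at 0 in any library, which favours a lower spread of the members, so these values are descriptions. The CV fell with level, from a median of 0.344 in the 319 members of lowest mean to 0.233 in the 319 of highest mean. The counting part fell from 0.228 to 0.0832 between the same groups, and the remainder only from 0.247 to 0.215. The highest library was less than 2 times the lowest in 230 members (18.1%) and at least 10 times the lowest in 46 (3.61%). In 52 members the CV was no larger than counting error gives.

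The steadiest members, picked as the 5 of lowest CV, lay near that limit. oar-piR-1987 had a lowest, median and highest deep library of 266, 290 and 338 CPM, and its CV of 0.0769 was below its counting CV of 0.0914. oar-piR-1220 lay at 130, 155 and 164 CPM, with a CV of 0.0771 against 0.128 from counting. oar-piR-68, at 499, 571 and 643 CPM, had a CV of 0.0809 against 0.0656 from counting. The choice of the lowest values favours a CV near or below the counting CV, so these are descriptions. oar-piR-287 (266 to 372 CPM) and oar-piR-1631 (325 to 468 CPM) followed, with CVs of 0.0852 and 0.0930.

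The most variable members had no such common level. oar-piR-7530 lay at 3.50, 55.9 and 180 CPM (lowest, median and highest deep library) and had the largest CV, 0.921. Its low males came from both diets, well-fed replicates 3 and 4 (15.4 and 3.50 CPM) and underfed replicates 1 to 4 (8.85 to 11.1 CPM). The other deep libraries were at 55.9 CPM or more, above a gap of 3.64 times. oar-piR-529 lay at 10.1, 44.4 and 232 CPM, with a CV of 0.887 and its highest level in well-fed replicate 7. oar-piR-7322, which the study places in an intron of CLEC16A, lay at 21.0, 48.5 and 222.9 CPM with a CV of 0.851. Its level in underfed replicate 2 was far above the other males. oar-piR-720 (CV 0.798) and oar-piR-3778 (CV 0.775, 3.07 to 39.5 CPM) completed the 5 most variable.

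**Figure D3:**
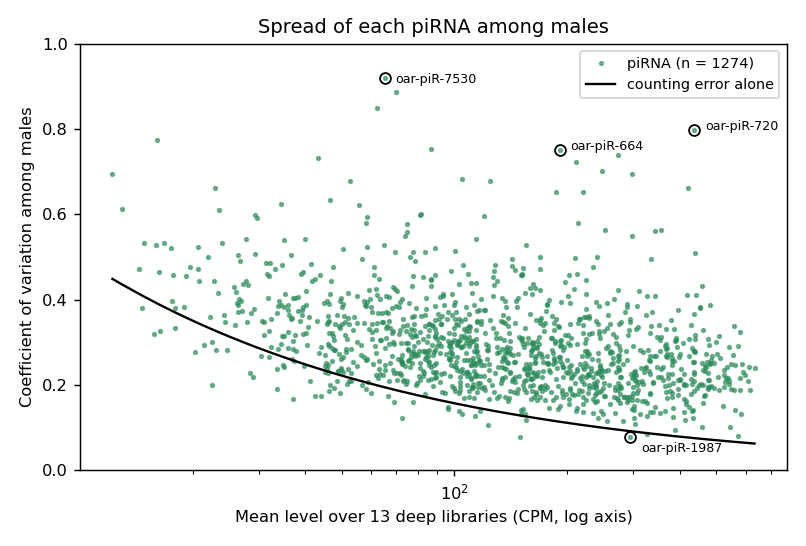
Coefficient of variation among the 13 deep libraries (vertical axis) against mean level (CPM, log axis), 1 point per member. The line is the value counting error alone gives, and the median member lies at 0.277 against 0.135 from counting.

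A few members lay at either a high or a low level among males. In 5 members, chosen after their values were seen, the ordered deep libraries held a gap of at least 4 times between neighbours. oar-piR-720 was at 13.9 to 16.4 CPM (5 to 10 reads) in 3 males and at 235 to 1092 CPM in the other 10. oar-piR-1701 was at 1.72 to 19.4 CPM in 4 males and at 261 to 447 CPM in 9. oar-piR-664 was at 3.60 to 19.0 CPM in 4 males and at 163 to 392 CPM in 9. No deep library lay between the low and the high level of any of these piRNAs. oar-piR-13215 was at 4.16 to 10.8 CPM in 3 males and at 54.4 to 153 CPM in 10. oar-piR-594 was at 3.47 and 4.08 CPM, 1 read each, in 2 males and at 19.2 to 53.1 CPM in 11.

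The same males recurred at the low level. Well-fed replicates 6 and 8 were low in 4 of these 5 piRNAs, that is in all but oar-piR-594. Well-fed replicate 2 was low in oar-piR-1701 and oar-piR-664, well-fed replicate 7 in oar-piR-664 and oar-piR-13215, and underfed replicate 2 in oar-piR-720 and oar-piR-1701. Both males low in oar-piR-594 were underfed, replicates 1 and 5. This piRNA is also among the 130 linked members described below, which were on average low in underfed replicate 1. All 4 males low in oar-piR-664 and all 3 low in oar-piR-13215 were well-fed. All the libraries compared here were deep. In the shallow ones oar-piR-1701 was at 329 to 978 CPM, oar-piR-720 at 166 to 274 CPM and oar-piR-664 at 150 to 196 CPM. There oar-piR-13215 was at 30.0 to 196 CPM and oar-piR-594 at 30.0 to 55.2 CPM. The lowest of these, 30.0 CPM, was 1 read of underfed replicate 8, between the low and the high level of oar-piR-13215.

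**Figure D4:**
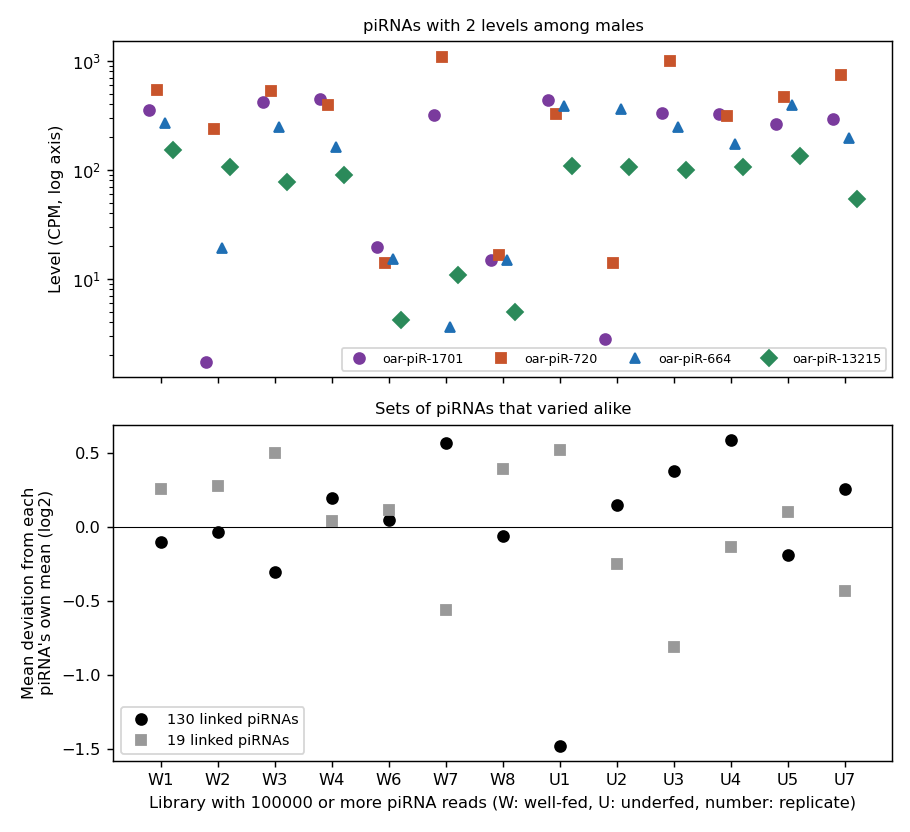
Upper panel, level (CPM, log axis) of 4 members with 2 levels in each deep library. Lower panel, mean log2 deviation of 130 and of 19 linked members from each piRNA's own mean, with underfed replicate 1 (U1) at -1.48 for the 130.

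Some members rose and fell together across males. Over the 13 deep libraries the log2 levels of oar-piR-10910 and oar-piR-1637 had Pearson's r = 0.994 and Spearman's rho = 0.995, and the ratio of their levels stayed between 1.03 and 1.21. oar-piR-1472 and oar-piR-10294 had r = 0.991, rho = 0.984 and a ratio of 1.51 to 1.84. oar-piR-526 and oar-piR-336 had r = 0.985, rho = 0.956 and a ratio of 0.942 to 1.59. These pairs were picked as the most alike of 810901, share libraries and depth, and are a description. Without underfed replicate 1 their r values were 0.996, 0.991 and 0.986. The median r of all pairs was 0.026, and 396 pairs exceeded 0.9, or 224 without underfed replicate 1. Members with adjacent numbers had a median r of 0.0416 over 276 pairs.

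Linking members at r above 0.9 gave 54 sets with 273 members in all, a grouping made after the values were seen. The largest set held 130 members, and the piRNA most like the rest of it was oar-piR-7118. oar-piR-7118 was at 79.8 CPM in underfed replicate 1 and at 197 to 570 CPM in the other deep libraries. The summed level of the 130 was 9363 CPM in underfed replicate 1 and 19185 to 38760 CPM in the other 15 libraries. On average each of the 130 was 1.48 below its own mean on the log2 scale in that male, and no other deep library departed by more than 0.58 on either side. This set depended on that male. Without underfed replicate 1 the median r within the 130 fell from 0.707 to 0.412, the largest set held 28 members, and 0 of these belonged to the 130. A second set of 19 members was 0.52 above its mean in underfed replicate 1 and 0.81 below it in underfed replicate 3. The diets overlapped in the summed level of the 130, with means of 23932 ± 4277 CPM (well-fed, SD, n = 8) and 26706 ± 8885 CPM (underfed, SD, n = 8).

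Underfed replicate 1 also stood apart over all members. Its mean Spearman's rho with the other deep libraries was 0.810, against 0.853 to 0.905 for the other 12. In that male 190 members were more than 2-fold from their own mean, 179 of them lower, whereas 9 to 80 members were so in the other deep libraries. The mean rho was 0.880 between libraries of the same diet and 0.870 between libraries of different diets, and 0.896 and 0.878 without underfed replicate 1. Pairs of well-fed males averaged 0.897 and pairs of underfed males 0.857.

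Between the diets, no member passed an FDR of 0.05 in limma, and 1 of all 4996 piRNAs (0.02%) did. The lowest FDR of a member was 0.901. At an unadjusted p under 0.05 there were 76 members (5.97%), against 4.52% of all piRNAs, so the members' share was near the background. Of these 20 were higher in underfed males (1.57%, background 0.681%) and 56 lower (4.40%, background 3.84%). Without TMM scaling the split was 27 higher (background 1.02%) and 47 lower (background 3.54%). The median log2 fold change (underfed minus well-fed) was -0.08 for the members and -0.23 for all piRNAs, and the median SE of a member was 0.29. In the deep libraries alone these medians were -0.06 and -0.04. By the rule the members hold no value of 0, while other piRNAs do. The medians and the shares of calls over 16 libraries are therefore not a like-for-like contrast. A voom fit of the recovered reads also called no member at an FDR of 0.05 (lowest FDR 0.165, background 0.06%) and 110 at an unadjusted p under 0.05 (8.63%, background 8.51%). In that fit 39 were higher (3.06%, background 4.18%) and 71 lower (5.57%, background 4.32%). Over 16 libraries the members' share of higher calls was thus above the background in limma and below it in voom. In limma the side also changed with the libraries. It was 2.90% against 3.22% in the 13 deep libraries, and 5.73% against 5.2% in the 12 without underfed replicate 1.

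The shallow libraries and underfed replicate 1 moved these counts. In the 13 deep libraries 112 members (8.79%, background 7.95%) had an unadjusted p under 0.05 and none passed the FDR (background 0.06%). Of these 37 were higher (2.90%, background 3.22%) and 75 lower (5.89%, background 4.72%). Without underfed replicate 1 the 15 libraries gave 125 members (9.81%, background 7.35%), again with none passing the FDR (background 0.02%). Leaving out all 4 libraries gave 200 members (15.7%, background 12.8%) and 1 that passed the FDR (background 0.2%). This was oar-piR-878, at 249, 313 and 384 CPM (lowest, median and highest) in 7 deep well-fed males, and at 139 to 200 CPM in 5 deep underfed males. Its log2 fold change there was -0.92 (limma, FDR = 0.0361), while over all 16 libraries it was -0.68 with an FDR of 0.901. Of the 4 libraries left out, 3 lay on the other side. Underfed replicate 1 was at 350 CPM, underfed replicate 8 at 419 CPM (14 reads), above every well-fed male, and well-fed replicate 5 at 117 CPM (3 reads), below every deep underfed male. In the remaining library, underfed replicate 6, oar-piR-878 was low at 55.2 CPM (1 read). In all 16 libraries no member kept the diets apart (background 0.02% above and 0.12% below). In the 13 deep libraries 1 member did so above (background 0.16%) and 3 below (background 0.2%), namely oar-piR-4622, and oar-piR-2610, oar-piR-608 and oar-piR-4863.

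Members with the lowest p in the higher direction showed different patterns, and each had an FDR of 0.901 over 16 libraries. oar-piR-4622 had a lowest, median and highest level of 16.2, 24.4 and 39.1 CPM in well-fed males and of 38.4, 51.1 and 59.9 CPM in underfed males. The groups met only at the shallow well-fed replicate 5, which held 1 read. Its log2 fold change was 0.96 (SE 0.33), and 1.05 (SE 0.24, limma FDR = 0.297) in the deep libraries. The levels of oar-piR-1618 were 30.7, 38.5 and 55.9 CPM in the well-fed group and 41.6, 74.5 and 139 CPM in the underfed group. The highest well-fed male, replicate 7, lay apart from the others, which were at 41.4 CPM or less. The groups overlapped, and the log2 fold change was 0.82 (SE 0.30). oar-piR-9269 was at 157, 229 and 326 CPM against 253, 344 and 569 CPM, with overlapping groups and a log2 fold change of 0.58 (SE 0.21).

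The levels of oar-piR-71 were 81.1, 224 and 783 CPM in the well-fed group against 354, 563 and 923 CPM in the underfed group. The well-fed top of 783 CPM was the shallow replicate 5. In the deep libraries well-fed males reached 575 CPM and the groups still overlapped. Its log2 fold change was 1.15 (SE 0.41), and 1.49 (SE 0.43) in the deep libraries. oar-piR-664 was at 3.60, 91.0 and 268 CPM against 150, 222 and 392 CPM. Its log2 fold change was 2.16 (SE 0.74). The 4 well-fed males outside the low level were at 163 to 268 CPM, within the underfed range. The study lists oar-piR-664 and oar-piR-7322 as differing between diets, chosen on these samples, and no other member is on that list. Its list came from edgeR, a count model, and is not set against a like test here. In voom on the recovered reads the FDR was 0.256 for oar-piR-664 and 0.352 for oar-piR-7322. oar-piR-7322 was at 21.0, 34.9 and 50.5 CPM against 35.4, 64.3 and 222.9 CPM, with a log2 fold change of 0.96 (SE 0.38, FDR = 0.901).

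In the lower direction oar-piR-2610 had the lowest p of all members. It was at 593, 642 and 901 CPM in well-fed males and at 424, 473 and 719 CPM in underfed males, and only underfed replicate 8, a shallow library, lay within the well-fed range. Its log2 fold change was -0.49 (SE 0.15, limma FDR = 0.901). oar-piR-2567 was at 59.6, 95.9 and 117 CPM against 30.0, 54.2 and 80.8 CPM (log2 fold change -0.88, SE 0.28). oar-piR-103 was at 294, 349 and 548 CPM against 55.2, 234 and 310 CPM (log2 fold change -0.93, SE 0.32). In both, the groups overlapped in part, and the lowest underfed value was 1 read of a shallow library.

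For oar-piR-59 the well-fed levels were 205, 282 and 470 CPM and the underfed levels 55.2, 190 and 240 CPM. Its log2 fold change was -0.89 (SE 0.30). In the deep libraries alone the changes of oar-piR-59 and oar-piR-103 were -0.57 and -0.50. oar-piR-10910 was at 391, 533 and 709 CPM against 221, 317 and 689 CPM, with a log2 fold change of -0.70 (SE 0.24). Its partner oar-piR-1637 had -0.71 (SE 0.25), and since their levels moved together these are not separate observations. oar-piR-608 and oar-piR-4863, named for their separation in the deep libraries, had log2 fold changes of -0.31 and -0.53 there, with FDR values of 0.577 and 0.523.

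**Figure D5:**
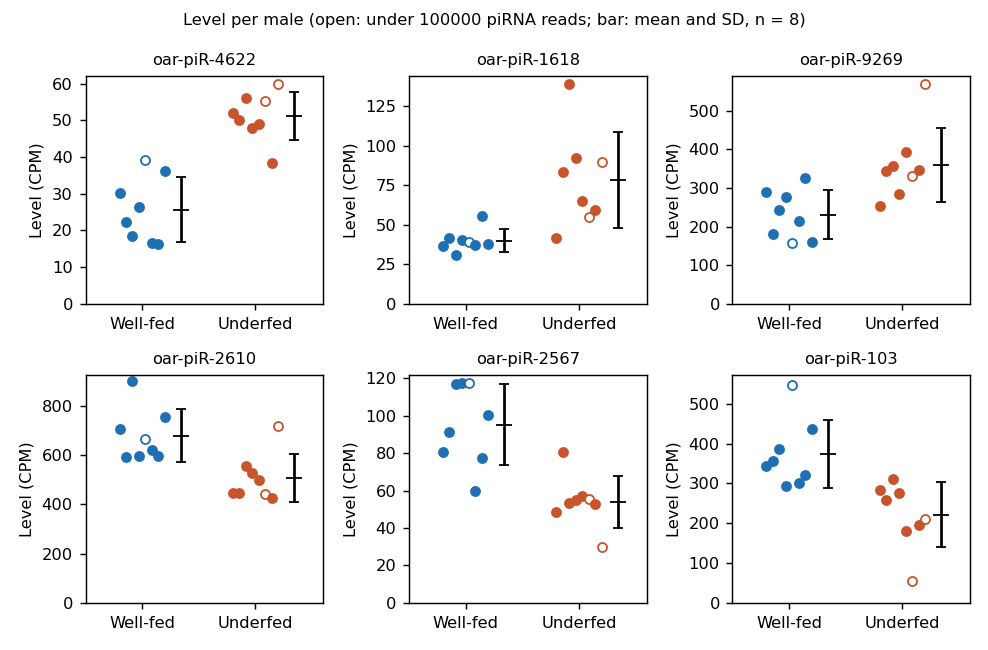
Level (CPM, each axis from 0) in every male of 3 members with a low p in the higher direction (upper row) and 3 in the lower direction (lower row). Open points are the shallow libraries, and bars give the mean and SD of 8 males; oar-piR-4622 separates the diets in the deep libraries, with at most 36.2 CPM in well-fed and at least 38.4 CPM in underfed males.

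The sum of 3 germ cell miRNAs of the same libraries was below the lowest well-fed male in 7 of 8 underfed males. The summed level of the homologues of miR-34c, miR-34b and miR-449a, which mark germ cells from meiosis on, was 47497 to 71079 CPM of miRNA reads in well-fed males (median 64054). In underfed males it was 10978 to 58155 CPM (median 21506), with 44629 CPM in underfed replicate 1. For the miR-34c homologue alone, underfed replicates 1 and 8 (35577 and 42915 CPM) were above the lowest well-fed male (33485 CPM). For the miR-34b and miR-449a homologues only underfed replicate 8 was (3792 and 11447 CPM, against 1673 and 10662 CPM). Smooth muscle miR-143 overlapped widely, from 150264 to 207461 CPM (well-fed) and from 133410 to 211940 CPM (underfed). The miR-145 homologue, also of smooth muscle, was at 2973 to 5773 CPM (well-fed, median 3937) and 1547 to 9536 CPM (underfed, median 4667). The blood miR-486 homologue was at 2336 to 7829 CPM (well-fed, median 6318) and 1372 to 8546 CPM (underfed, median 3057). The skeletal muscle miR-133 homologue was at 0 to 24.6 CPM. The part of these differences in the members' values was not tested.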

How the data were processed

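The authors deposited CPM, scaled to the piRNA total for piRNAs and to the miRNA total for miRNAs, so a member's level is relative to the other piRNAs of its library. Per the study's methods and processing notes, reads were base-called with CASAVA 1.8, reads of 26 to 32 nt were mapped without mismatch to the sheep genome (Oar_v3.1) with Bowtie 1.0.1, and piRNAs were called by a predictor trained on other species. The authors tested diets with edgeR.

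Diets and replicate numbers came from the sample labels. Members and lists were chosen with earlier results of these data known. Reads were recovered by dividing piRNA values by the smallest value of the library, and 100% of values up to 200 reads came out within 0.01 of a whole number. Libraries of at least 100000 piRNA reads were called deep. limma 3.58.1 in R 4.3.3 was run on log2(CPM + 1) after TMM scaling (own implementation, 30% and 5% trimmed), with the empirical Bayes trend, over piRNAs above 5 CPM in at least 8 libraries. All 4996 met this. FDR is Benjamini-Hochberg over all of them, and DE also required a ratio of mean CPM under 0.67 or above 1.5. The pseudocount of 1 makes log2 fold changes of low piRNAs too small. The fits were tested on simulated data. Summed levels were compared by exact permutation in Python 3.11.15 with scipy 1.17.1.

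Named members are the 5 of lowest p in each direction, the 4 highest and 4 lowest by mean, the 5 of lowest and highest CV, those on the study's list, the 3 most alike pairs and the 3 with the largest ratio of the highest library to the median of the others. Members with 2 levels, oar-piR-878, oar-piR-608, oar-piR-4863 and oar-piR-7118 were named after their values were seen. Reads from PCR without molecular identifiers are not independent molecules, so counting errors and floors cover counting only. Alternatives were other pseudocounts, filters and scalings, a robust fit, the read total as covariate, voom, the replicate block, the deep libraries and each male left out. Deep libraries without underfed replicate 1, and voom on the deep libraries, were alternatives added after seeing the data.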

Additional observations from a re-analysis of the deposited data

Results flagged for a closer look

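For 32 named members and their summed level, the highest and lowest male of each diet were compared with the nearest other male, and 16 of 66 groups of 8 held a value far from the rest. Chance gives such a value in about 1 in 20 groups where all males are measured equally well. That rate does not apply here as it stands, since some members were named for their spread or their extreme male, and the shallow libraries carry larger counting error.

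Of these values, 12 came from shallow libraries. In well-fed replicate 5, oar-piR-59 was at 469.6 CPM (12 reads, next male 322.5), oar-piR-1220 at 234.8 CPM (6 reads), oar-piR-1631 at 626.2 CPM (16 reads) and oar-piR-1701 at 978.4 CPM (25 reads, next male 446.9). In the same library oar-piR-608 was low at 156.5 CPM (4 reads, next male 377.1) and oar-piR-4863 high at 117.4 CPM (3 reads). In underfed replicate 6, oar-piR-1987 and oar-piR-287 were both low at 165.7 CPM (3 reads), and oar-piR-1220 was high at 276.1 CPM (5 reads). In underfed replicate 8, oar-piR-9269 was at 569.1 CPM (19 reads), oar-piR-2610 at 718.9 CPM (24 reads) and oar-piR-4863 at 89.9 CPM (3 reads).

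The other 4 came from deep libraries. In well-fed replicate 7, oar-piR-1618 was at 55.9 CPM (31 reads, next male 41.4) and oar-piR-7118 at 502.7 CPM (279 reads, next male 302.2). In underfed replicate 2, oar-piR-7322 was at 222.9 CPM (80 reads, next male 100.8). In that male oar-piR-1701 was at 2.79 CPM (1 read), while the next lowest underfed male was at 261.4 CPM.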

How the results depend on the processing

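The difference in summed share changed sign in the deep libraries (-0.275 points), with members chosen on the deep libraries (-0.0751 points), without underfed replicate 6 (-0.00744 points) and without underfed replicate 8 (-0.118 points). With 1 male left out it ran from -0.118 to 0.514 points, and no exact permutation p fell below 0.334. The number of members at an unadjusted p under 0.05 ran from 55 to 125 with 1 male left out, the highest without underfed replicate 1. It was 125 with voom on the deep libraries, and 200, with 1 passing the FDR, in the deep libraries without underfed replicate 1. No other alternative gave a member an FDR under 0.05. The median log2 fold change stayed between -0.13 and -0.05 with 1 male left out, and the median CV between 0.262 and 0.285. None of 11 named diet changes changed sign. They were picked for a low p in the same libraries or from the study's list made on these samples, which favours a kept sign, so this is a description.

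Whether replicate numbers pair the males was not tested. Same-numbered males had correlated deviations of -0.143 to 0.255 (mean 0.0755), above 0.1 in 4 of 8 pairs. Males of different numbers had a mean of -0.00848, and 3 of 8 males matched best with their own number. The replicate block gave 58 members at an unadjusted p under 0.05 (background 3.8%) and a share difference of 0.194 points (exact sign-flip p = 0.797). Depth limits the members at 1 to 3 reads in the shallow libraries, where 1 read more or less moves a level by 30.0 CPM or more.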
